A study of Homo sapiens with 6 samples.

Results

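The genes described here are 52 genes of the G2 to M transition, the mitotic spindle and the kinetochore. They were chosen by name from their known roles, with earlier results of these data known, and their 52 symbols were found among the 17721 genes of the deposited table. RNA was sequenced from 3 libraries of MDA-MB-231BR cells that stably express an shRNA against ACSS2 and from 3 libraries of the same line that stably express a control shRNA. MDA-MB-231BR was derived from MDA-MB-231, an established breast cancer line, for its tropism to brain, and ACSS2 makes acetyl-CoA from acetate in the nucleus and cytosol. Cells of both groups were grown alone in culture, infected with lentivirus made in HEK-293T cells and put under antibiotic selection, so the controls carry a vector too. The labels call the 3 libraries of a group biological replicates and give each a batch number of 1, 2 or 3, which is shared by 1 library of each group. Neither the number of hairpin sequences is stated nor whether the selected cells were a pool or a clone. The comparison asks which of these transcripts differ between cells with the ACSS2 shRNA and cells with the Control shRNA, with and without pairing by batch number.

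Entry into mitosis is driven by CDK1 bound to cyclin B, which CDC25 phosphatases activate and which PLK1 and the Aurora kinases reinforce. Kinesins and microtubule-binding proteins then build the spindle, kinetochores join chromosomes to it, and the spindle checkpoint keeps the anaphase-promoting complex (APC/C) inactive until every chromosome is attached. Most of these genes are transcribed in a narrow window of the cell cycle: the MuvB complex binds their promoters at the cell cycle genes homology region (CHR), first as a repressor and later together with B-MYB and FOXM1, and NF-Y binds CCAAT boxes nearby. Their RNA is widely read as a sign of how many cells of a culture are cycling. In RNA from whole cultures, fewer cells in these phases and less RNA per cell cannot be told apart.

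The promoters below are shown because these letters are what most of the 52 genes share beside their roles. RefSeq gives a window from 250 bases before to 50 bases after a listed start (GRCh38.p14) for 45 of the 52 genes. In AURKB, CENPI and SMC2 that start lies inside the RefSeq span of the gene rather than at its outer end. AURKA, TTK, BUB3, UBE2C, BIRC5, TPX2 and FOXM1 were not matched. Each sequence runs 5′ to 3′ on the strand of its gene, and capitals mark TTTGAA or TTCGAA (the CHR letters) and CCAAT (the NF-Y box), searched on both strands, so that TTCAAA and ATTGG are the same letters read on the other strand.
CCNB2, plus strand, chr15:59104896-59105195: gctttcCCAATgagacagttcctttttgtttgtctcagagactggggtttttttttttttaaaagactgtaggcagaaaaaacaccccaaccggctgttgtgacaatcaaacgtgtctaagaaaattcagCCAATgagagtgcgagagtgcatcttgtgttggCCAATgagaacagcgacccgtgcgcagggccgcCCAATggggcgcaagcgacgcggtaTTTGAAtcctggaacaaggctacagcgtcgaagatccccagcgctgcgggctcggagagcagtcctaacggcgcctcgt
PLK1, plus strand, chr16:23678639-23678938: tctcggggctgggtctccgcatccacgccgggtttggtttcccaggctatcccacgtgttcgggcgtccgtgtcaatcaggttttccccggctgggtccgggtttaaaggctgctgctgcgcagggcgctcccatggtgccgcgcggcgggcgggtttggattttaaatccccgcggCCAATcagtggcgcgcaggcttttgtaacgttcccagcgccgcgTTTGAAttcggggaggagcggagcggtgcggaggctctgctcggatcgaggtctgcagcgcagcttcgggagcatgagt
CDC20, plus strand, chr1:43358731-43359030: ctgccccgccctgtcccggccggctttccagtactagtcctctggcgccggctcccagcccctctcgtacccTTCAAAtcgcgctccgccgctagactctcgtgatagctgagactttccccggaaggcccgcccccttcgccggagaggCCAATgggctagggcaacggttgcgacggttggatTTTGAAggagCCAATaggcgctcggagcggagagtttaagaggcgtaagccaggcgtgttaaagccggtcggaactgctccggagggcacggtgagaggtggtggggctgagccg
KIF22, plus strand, chr16:29790501-29790800: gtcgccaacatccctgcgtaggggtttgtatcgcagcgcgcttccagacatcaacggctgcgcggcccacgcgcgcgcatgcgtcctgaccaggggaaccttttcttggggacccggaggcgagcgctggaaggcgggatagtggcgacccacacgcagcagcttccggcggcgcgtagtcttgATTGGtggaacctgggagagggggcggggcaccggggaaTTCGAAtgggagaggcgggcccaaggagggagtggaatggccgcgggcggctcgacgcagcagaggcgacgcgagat
PRC1, minus strand, chr15:90994486-90994785: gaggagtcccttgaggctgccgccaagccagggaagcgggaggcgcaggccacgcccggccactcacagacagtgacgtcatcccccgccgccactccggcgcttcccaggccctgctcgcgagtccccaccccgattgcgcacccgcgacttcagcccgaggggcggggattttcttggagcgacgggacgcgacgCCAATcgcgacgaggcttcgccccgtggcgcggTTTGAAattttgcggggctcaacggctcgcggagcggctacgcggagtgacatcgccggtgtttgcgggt
CDC25B, plus strand, chr20:3786701-3787000: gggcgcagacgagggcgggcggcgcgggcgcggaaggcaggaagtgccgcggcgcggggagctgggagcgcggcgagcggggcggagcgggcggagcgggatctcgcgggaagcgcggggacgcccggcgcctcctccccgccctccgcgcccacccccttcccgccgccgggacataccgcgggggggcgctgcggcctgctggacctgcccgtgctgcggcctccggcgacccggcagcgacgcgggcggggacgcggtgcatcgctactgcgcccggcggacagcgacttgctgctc
In CCNB2, the gene of cyclin B2, the CHR letters begin 29 bases before the start and the nearest of its 4 CCAAT boxes begins 54 bases before it. PLK1 has the CHR letters 29 bases and a CCAAT box 73 bases before its start. CDC20 has CHR letters 65 and 178 bases and CCAAT boxes 55 and 100 bases before its start. The kinesin gene KIF22 carries TTCGAA 27 bases and the box, as ATTGG, 66 bases before its start, and PRC1 carries the pair at 20 and 53 bases. CDC25B, the member whose level differed least between the groups, has neither in this window. CDC25C, KIF2C, CENPE and CENPI, whose windows are not shown, have neither as well. These were lower in ACSS2 shRNA cells, with log2 fold changes paired by batch number of -0.82, -1.00, -0.87 and -0.62.

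The CHR letters stood in 34 of the 45 windows (75.6%), against 11.2% of the 10589 windows of the genes tested and 16.6% of all 27305 windows in the table. CCAAT stood in 32 of them (71.1%), against 36.6% and 35.7%. Both occurred together in 26 windows (57.8%), against 4.69% and 6.58%. Matches of the 2 motifs shared a base in 2 of the 45 windows. The matches also lay in the same places. From 50 bases before to 50 bases after the start, 62.2% of the members had CHR letters and 3.17% of the genes tested did. From 125 to 25 bases before the start, 60% of the members and 23.7% of the genes tested had CCAAT. These 2 windows were chosen after the positions were seen. Neither motif was found in the windows of CDC25B, CDC25C, KIF2C, CENPE and CENPI, of which that of CENPI begins inside the gene.

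**Figure D1:**
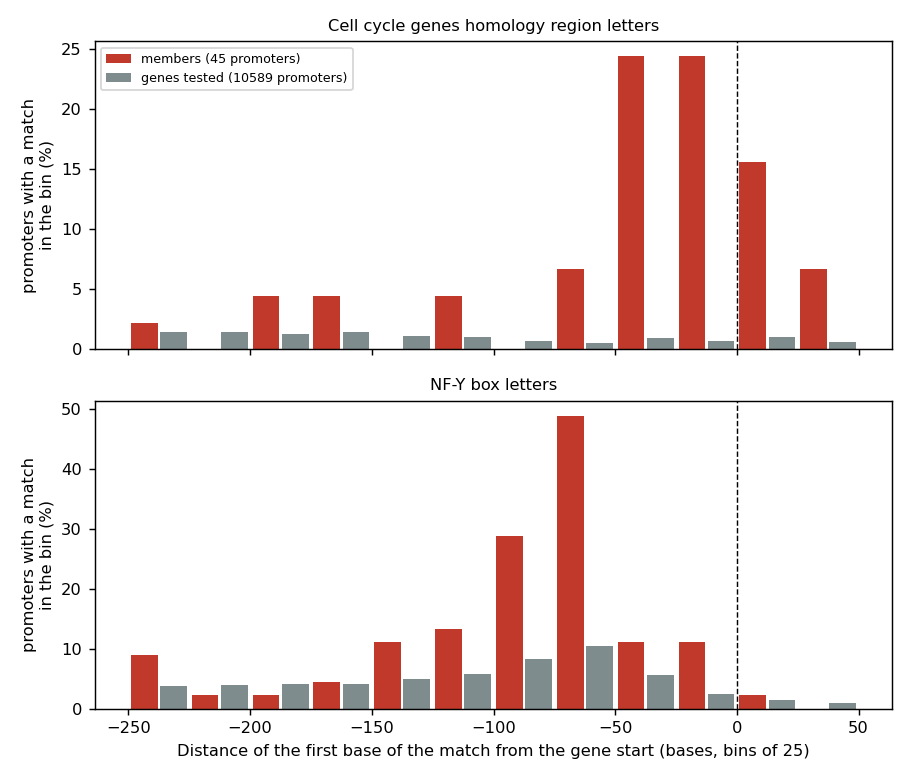
Share of promoter windows (%) with a match that begins in each bin of 25 bases, by distance from the gene start (bases, negative before it), for 45 members (red) and 10589 genes tested (grey). CHR letters of the members gather around the start, and their NF-Y boxes gather in the 125 bases before it.

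Gene positions are those of RefSeq on GRCh38.p14. The libraries held between 15048275 and 18608124 counts. ACSS2 (chromosome 20, 34874989 to 34927959) had 11.1, 50.5 and 88.7 CPM (counts scaled by library size with TMM factors) in ACSS2 shRNA libraries 1, 2 and 3, against 76.3, 71.2 and 163.6 CPM in Control shRNA libraries 1, 2 and 3. Within each number the ACSS2 shRNA library was the lower one, but ACSS2 shRNA 3 lay above Control shRNA 1 and 2, so the groups overlap. The log2 difference was -2.76, -0.49 and -0.88 in pairs 1, 2 and 3, and the fitted value was -1.05 (SE 0.64, edgeR adjusted p = 0.504) without and -1.31 (SE 0.30, edgeR adjusted p = 0.00757) with the batch number as a block. DESeq2 with the block did not call it (-1.38, adjusted p = 0.126). VIM, CD44, EGFR, KRT8 and KRT18, genes known from this line, were present in all 6 libraries, while ESR1 reached at most 1.21 TPM (transcript abundance per length, scaled to a fixed total by the authors) and PGR at most 0.24 TPM. ERBB2, which is also on the hormone receptor list, lay between 26.48 and 42.87 TPM. Of the other cell types' markers in the table, 11 of 18 (PTPRC, CD3E, ITGAM, VWF, SYP, GFAP, AQP4, COL1A2, DCN, LUM and PDGFRA) stayed at or under 0.36 TPM in every library. Summed TPM of the immune list, nearly all CD68, was 407.2, 536.8 and 815.8 in ACSS2 shRNA libraries 1, 2 and 3, and 379.9, 586.1 and 888.6 in Control shRNA libraries. That of the neuron and glia list, nearly all MBP and RBFOX3, was 31.9, 51.5 and 77 in ACSS2 shRNA and 42.1, 63.2 and 95.2 in Control shRNA libraries. The endothelial list summed to 7.93, 13.1 and 13.8 TPM in ACSS2 shRNA libraries and 3.89, 5.24 and 9.15 TPM in Control shRNA libraries. The fibroblast list, nearly all COL1A1, summed to 18.4, 12.6 and 8.05 TPM in ACSS2 shRNA libraries and 5.6, 5.79 and 4.19 TPM in Control shRNA libraries. Both were higher in the ACSS2 shRNA library of each number. Their part in the results below was not tested.

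All 52 members passed the filter on low counts. Their RNA was lower in ACSS2 shRNA cells by a median log2 fold change of -0.77 without pairing and -0.73 with the batch number as a block, where the median over all 13003 genes tested was 0.02 in both. A gene was called at an adjusted p under 0.05 in edgeR's quasi-likelihood test, and the 2 fits are named the unpaired and the paired fit. In the paired fit 49 of the 52 members fell, where 12.4% of all genes tested were called lower, and none rose, where 12.7% were called higher. CDC25B, KIF18A and SMC4 were not called. In the unpaired fit 0 members were called lower, where 0.0461% of all genes were (6 genes), and 0 were called higher. There 12 members had an unadjusted p under 0.05, as had 1820 of all genes, and the adjusted p of these 12 lay between 0.143 and 0.349. DESeq2 without pairing called 3 members lower, TPX2, PTTG1 and BUB3, against 2.35% of all genes, and DESeq2 with the block called 45, against 10.9% of all genes. The authors' deposited table of their own DESeq2 comparison gives 3 members a q under 0.05 and a negative value, TPX2 (q = 0.0159), PTTG1 (q = 0.0205) and BUB3 (q = 0.0462), where 1.51% of all genes with a q are so called.

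Members were low in both libraries numbered 3. Summed over the 52 genes, TPM was 2848.1, 2199.8 and 1350.4 in ACSS2 shRNA libraries 1, 2 and 3, and 4850.6, 4131.6 and 1807.5 in Control shRNA libraries 1, 2 and 3. Control shRNA 3 stood below ACSS2 shRNA 1 and 2, while within each number the ACSS2 shRNA library was the lower one. The biological coefficient of variation was 26.6% without the block and 11.8% with it. Control shRNA 3 was below the highest ACSS2 shRNA library in 50 of the 52 members. The groups did not overlap in PTTG1 and BUB3, which is 2 of 52 members, where 9.63% of all genes had every ACSS2 shRNA library below every Control shRNA library. In 50 members the ACSS2 shRNA library was lower in all 3 pairs, where 27.3% of all genes were. CDC25B and SMC4 were the exceptions.

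**Figure D2:**
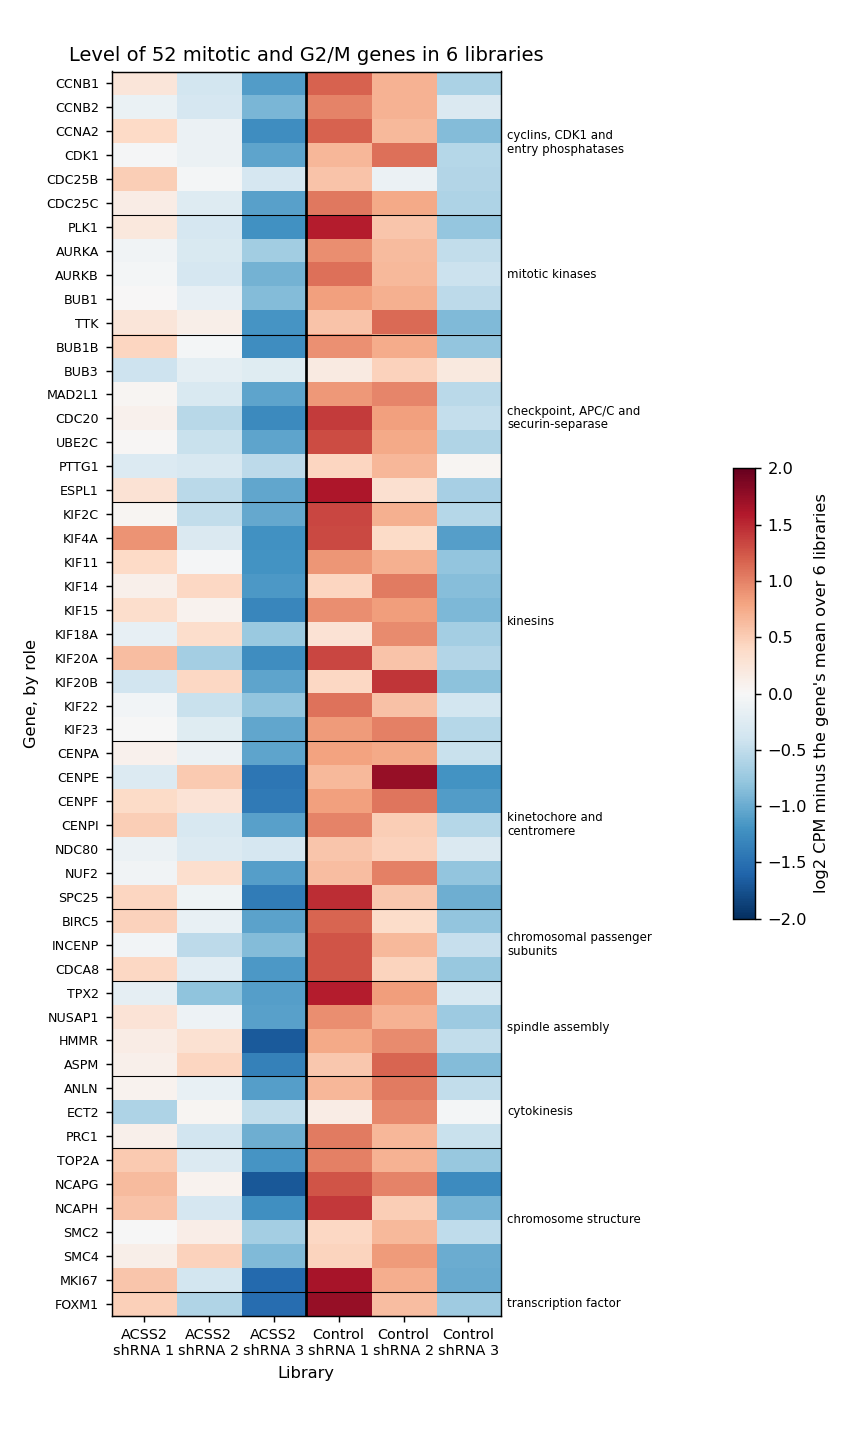
Level of each of the 52 genes in each library as log2 CPM minus the gene's mean over the 6 libraries, with roles at the right. ACSS2 shRNA 3 is the lowest library for 48 genes, and Control shRNA 1 or 2 is the highest for all 52 (34 and 18 genes).

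The size of the difference varied with the pair. The median over the members was -0.75 in pair 1, -0.91 in pair 2 and -0.43 in pair 3, where the medians over all genes were 0.04, 0.00 and 0.02. At least 2-fold lower in the ACSS2 shRNA library were 14 members in pair 1, 20 in pair 2 and 1 in pair 3. The matching shares of all genes are not given here. The exception in pair 3 was HMMR, a hyaluronan-binding spindle protein and the member with the lowest mean TPM (2.33). Its difference of -1.10 in pair 3 was its largest of the 3 pairs. In 46 members pair 3 had the smallest decrease of the 3 pairs, and CDC25B and SMC4 were higher in ACSS2 shRNA cells in that pair. ACSS2 itself differed most in pair 1 and least in pair 2, which is not the order of the members' medians.

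**Figure D3:**
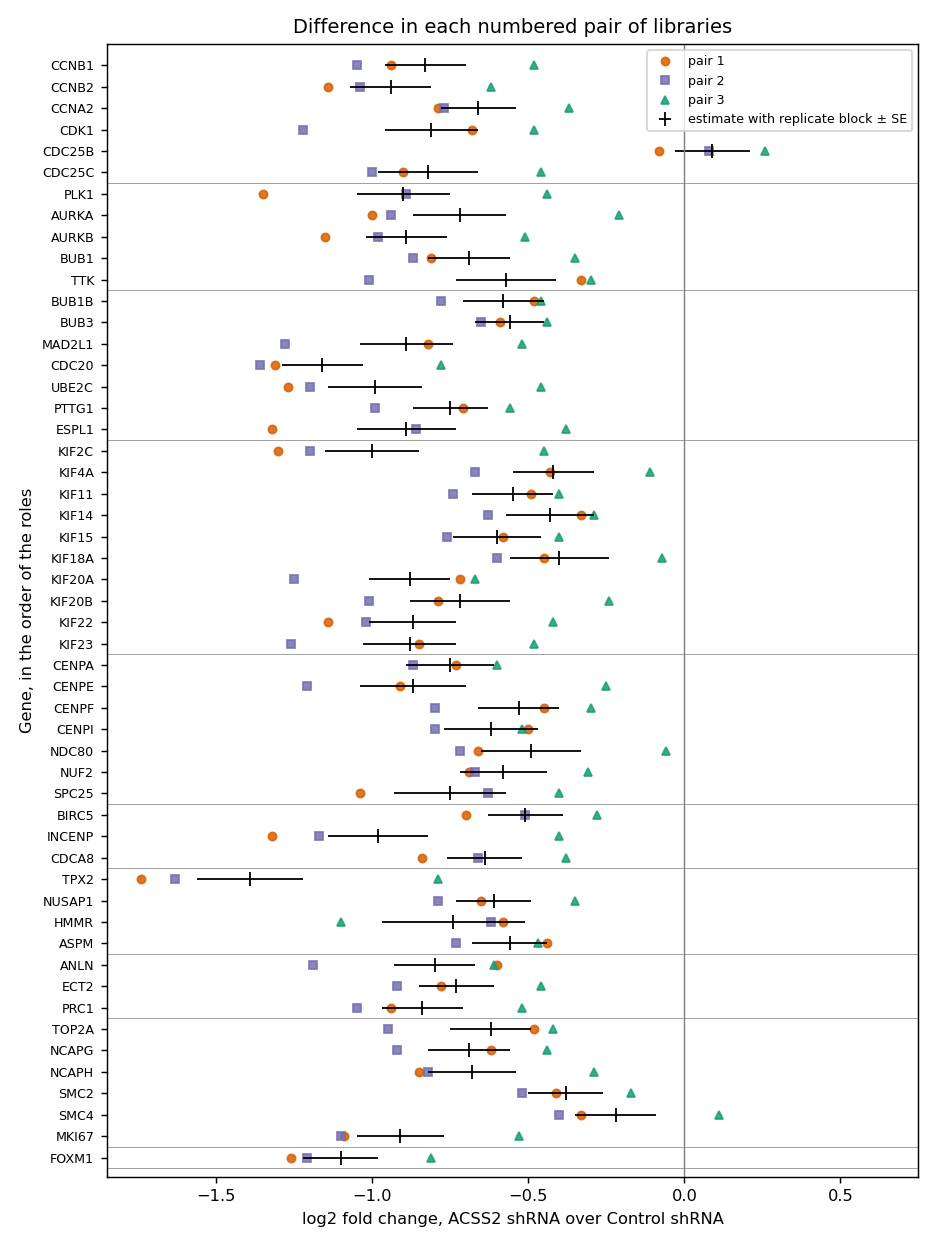
Log2 difference of ACSS2 shRNA over Control shRNA within pairs 1, 2 and 3 (points) and the estimate of the paired fit with its SE (black bars) for the 52 genes, in the order of their roles. Pair 3 (triangles) shows the smallest decrease for 46 genes, it lies above 0 for CDC25B and SMC4, and CDC25B is the gene whose estimate is above 0 (0.09).

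The cyclins, CDK1 and the entry phosphatases start mitosis. Of these 6 genes 5 fell in the paired fit and CDC25B did not pass, with a median log2 fold change of -0.82. CCNB2, which encodes a B-type cyclin, had 33.3, 29 and 19.4 CPM in ACSS2 shRNA libraries 1, 2 and 3, against 73.4, 59.5 and 29.9 CPM in Control shRNA libraries. Each ACSS2 shRNA library was lower than the control of its number, and Control shRNA 3 lay between ACSS2 shRNA 1 and 2. The means were 27.2 ± 7.16 CPM in ACSS2 shRNA and 54.3 ± 22.2 CPM in Control shRNA cells (SD, n = 3 each), and the log2 fold change was -1.00 without the block (SE 0.34, edgeR adjusted p = 0.254) and -0.94 with it (SE 0.13, edgeR adjusted p = 0.000406). CCNB1, the other B-type cyclin, fell by 0.83 on the log2 scale in the paired fit, and CDK1, the kinase that both cyclins activate, fell by 0.81. CCNA2, the cyclin of S phase and G2, fell by 0.66.

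CDC25C, which removes inhibitory phosphates from CDK1, fell by 0.82 on the log2 scale in the paired fit (edgeR adjusted p = 0.00314) from a low level, 8.39 ± 3.32 CPM in ACSS2 shRNA and 15.3 ± 7.66 CPM in Control shRNA cells. CDC25B, its relative that acts at the centrosome, had 203.5, 141.1 and 115.0 CPM in ACSS2 shRNA libraries 1, 2 and 3 and 214.6, 133.4 and 96.1 CPM in Control shRNA libraries. It followed the batch number in both groups, and the ACSS2 shRNA library was the higher one in pairs 2 and 3. The fitted log2 fold change was 0.05 without the block (SE 0.32, edgeR adjusted p = 0.966) and 0.09 with it (SE 0.12, edgeR adjusted p = 0.619). Whether CDC25B and CDC25C differ from each other was not tested.

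All 5 mitotic kinases fell in the paired fit, with a median of -0.72. PLK1, the kinase of mitotic entry, centrosomes and cytokinesis, had 140.2, 95.5 and 52.4 CPM in ACSS2 shRNA libraries 1, 2 and 3, against 358.3, 177.4 and 70.8 CPM in Control shRNA libraries. Control shRNA 1 was the highest library by far, and Control shRNA 3 stood below ACSS2 shRNA 1 and 2. PLK1 fell by 0.90 on the log2 scale in the paired fit (SE 0.15, edgeR adjusted p = 0.00134), and its unpaired value was -1.07 (SE 0.55, edgeR adjusted p = 0.433). AURKB, the kinase of the chromosomal passenger complex, had 66.3, 54.1 and 35.7 CPM in ACSS2 shRNA and 147.3, 107.0 and 51 CPM in Control shRNA libraries 1, 2 and 3. It fell by 0.89 in the paired fit (SE 0.13, edgeR adjusted p = 0.00063). The centrosome and spindle pole kinase AURKA fell by 0.72 and BUB1, a checkpoint kinase at the kinetochore, by 0.69.

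TTK, the kinase that starts checkpoint signalling, had the smallest difference of the kinases. Its levels were 18.6, 17 and 6.95 CPM in ACSS2 shRNA libraries 1, 2 and 3, against 23.5, 34.5 and 8.59 CPM in Control shRNA libraries. Pair 2 differed most (-1.01), and pairs 1 and 3 differed by -0.33 and -0.30. TTK fell by 0.57 in the paired fit (SE 0.16, edgeR adjusted p = 0.022) and lost this call without replicate 2 (-0.36, edgeR adjusted p = 0.28).

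The checkpoint, APC/C and securin-separase genes held the 2 of 52 members whose groups did not overlap. Of all genes tested, 9.63% had every ACSS2 shRNA library below every Control shRNA library. All 7 genes of this role group fell in the paired fit, with a median of -0.89. PTTG1 (chromosome 5, 160421855 to 160428744) encodes securin, the inhibitor of separase that the APC/C destroys at anaphase, and was the most abundant member at a mean of 393.1 TPM. It had 122.7, 119.0 and 103.3 CPM in ACSS2 shRNA libraries 1, 2 and 3, against 200.2, 236.3 and 152.3 CPM in Control shRNA libraries 1, 2 and 3. Every ACSS2 shRNA library lay below every Control shRNA library. The means were 115.0 ± 10.3 CPM in ACSS2 shRNA and 196.3 ± 42.2 CPM in Control shRNA cells (SD, n = 3 each), and the log2 fold change was -0.77 without the block (SE 0.20, edgeR adjusted p = 0.143) and -0.75 with it (SE 0.12, edgeR adjusted p = 0.000954). Its near copy PTTG2 reached at most 0.47 TPM in any library, and the sources used here do not say how the authors' counting split reads between the 2 genes.

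BUB3 (chromosome 10, 123154402 to 123170467), a partner of BUB1 and BUBR1 that docks them at kinetochores, had 159.4, 185.3 and 179.3 CPM in ACSS2 shRNA libraries 1, 2 and 3, against 240.7, 290.8 and 242.7 CPM in Control shRNA libraries. Again every ACSS2 shRNA library lay below every Control shRNA library. Library 2 was the highest and library 1 the lowest of both groups, but the difference between numbers was not called (edgeR adjusted p = 0.32). Its difference was one of the smaller ones of this group, -0.56 in both fits, and its SE was 0.16 unpaired (edgeR adjusted p = 0.189) and 0.11 paired (edgeR adjusted p = 0.00384). PTTG1 and BUB3 had the smallest SE of the unpaired fit among the 52 genes.

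CDC20, the activator that the checkpoint holds back from the APC/C, had 217.5, 139.9 and 84.9 CPM in ACSS2 shRNA libraries 1, 2 and 3, against 538.8, 359.6 and 146.3 CPM in Control shRNA libraries. ACSS2 shRNA 2 and 3 lay below all Control shRNA libraries, and ACSS2 shRNA 1 lay above Control shRNA 3. CDC20 fell 2.23-fold in the paired fit (log2 fold change -1.16, SE 0.13, edgeR adjusted p = 0.000163), and unpaired it was -1.24 (SE 0.48, edgeR adjusted p = 0.311). UBE2C, the ubiquitin-conjugating enzyme that works with the APC/C, fell by 0.99 on the log2 scale, and ESPL1, the separase that cuts cohesin, fell by 0.89. Of the checkpoint proteins that bind CDC20, MAD2L1 (MAD2) fell by 0.89 and BUB1B (BUBR1) by 0.58. BUB1B lost its call without replicate 2 (-0.51, edgeR adjusted p = 0.057).

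The 10 kinesins are microtubule motors or depolymerases that act on chromosomes, spindle poles or the midzone. In the paired fit 9 fell and KIF18A did not pass, with a median of -0.66. KIF2C (MCAK), which takes microtubules apart at centromeres, had the largest difference. It had 75.4, 52.4 and 36.2 CPM in ACSS2 shRNA libraries 1, 2 and 3, against 186.2, 120.4 and 49.5 CPM in Control shRNA libraries. Control shRNA 3 was again below ACSS2 shRNA 1 and 2, and KIF2C fell 2.0-fold in the paired fit (log2 fold change -1.00, SE 0.15, edgeR adjusted p = 0.000712). KIF22, a chromokinesin that pushes chromosome arms away from the poles, had 57.7, 44.3 and 34.8 CPM in ACSS2 shRNA, against 127.6, 90 and 46.7 CPM in Control shRNA libraries 1, 2 and 3, and fell by 0.87. KIF20A and KIF23, 2 motors of the central spindle in cytokinesis, both fell by 0.88 on the log2 scale, and KIF20B, a relative in the same process, fell by 0.72.

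The other kinesins had smaller differences. KIF15 and KIF11, the 2 motors that push the spindle poles apart, fell by 0.60 and 0.55. KIF14, which carries citron kinase to the midbody, fell by 0.43 and KIF4A, the chromokinesin of the anaphase midzone, by 0.42. KIF18A, which damps chromosome movements at the metaphase plate, had 9.41, 13.4 and 6.27 CPM in ACSS2 shRNA libraries 1, 2 and 3, against 12.9, 20.3 and 6.59 CPM in Control shRNA libraries. It was lower in each pair, by 0.07 on the log2 scale in pair 3, and the paired estimate was a log2 fold change of -0.40 (SE 0.16, edgeR adjusted p = 0.0848). Without replicate 3 it passed (-0.53, edgeR adjusted p = 0.0454). Without replicate 2 the calls of KIF4A, KIF11, KIF14, KIF15 and KIF20B were lost (edgeR adjusted p = 0.26, 0.0776, 0.311, 0.087 and 0.0713), KIF4A was lost without replicate 1 (edgeR adjusted p = 0.0708) and KIF14 without replicate 3 (edgeR adjusted p = 0.0512). KIF4B, a retrocopy of KIF4A, reached at most 0.05 TPM.

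All 7 kinetochore and centromere genes fell in the paired fit, with a median of -0.62. CENPA, the histone H3 variant that marks centromeres, had 15.3, 13.3 and 6.95 CPM in ACSS2 shRNA libraries 1, 2 and 3, against 25.3, 24.4 and 10.6 CPM in Control shRNA libraries. It was lower in each pair, by 0.73, 0.87 and 0.60 on the log2 scale, and fell by 0.75 in the paired fit (SE 0.14, edgeR adjusted p = 0.00229). CENPE, a kinesin that carries chromosomes to the spindle equator, had 11.4, 19.7 and 5.03 CPM in ACSS2 shRNA, against 21.6, 45.9 and 6.01 CPM in Control shRNA libraries 1, 2 and 3. Library 2 of each group was its highest and library 3 its lowest, and it fell by 0.87 (SE 0.17, edgeR adjusted p = 0.0034).

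The NDC80 complex, which grips microtubules at the outer kinetochore, is represented by 3 genes. NDC80 had 14.4, 12.9 and 12.3 CPM in ACSS2 shRNA libraries 1, 2 and 3, against 22.8, 21.4 and 12.8 CPM in Control shRNA libraries. Pair 3 differed by only -0.06, and NDC80 fell by 0.49 in the paired fit (SE 0.16, edgeR adjusted p = 0.0359). Its partners NUF2 and SPC25 fell by 0.58 and 0.75, CENPF, which links kinetochores to dynein, by 0.53 and CENPI, a subunit of the inner kinetochore, by 0.62. Without replicate 2 the calls of NDC80, NUF2, CENPF and CENPI were lost (edgeR adjusted p = 0.206, 0.064, 0.113 and 0.0848), and without replicate 1 those of NDC80 and SPC25 were (edgeR adjusted p = 0.114 and 0.0941).

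The chromosomal passenger complex corrects faulty attachments and steers cytokinesis, with AURKB as its enzyme. Its 3 other subunits fell in the paired fit, with a median of -0.64. INCENP, the scaffold that activates AURKB, had 52.7, 38.1 and 30 CPM in ACSS2 shRNA libraries 1, 2 and 3, against 131.2, 86 and 39.7 CPM in Control shRNA libraries. It fell by 0.98 on the log2 scale (SE 0.16, edgeR adjusted p = 0.000987). CDCA8 (borealin) had 92, 59.8 and 31.3 CPM in ACSS2 shRNA, against 165.0, 94.5 and 40.9 CPM in Control shRNA libraries 1, 2 and 3, and fell by 0.64. BIRC5 (survivin) had 83.5, 54.8 and 28.7 CPM in ACSS2 shRNA, against 135.9, 78.1 and 34.9 CPM in Control shRNA libraries 1, 2 and 3. It fell by 0.51 (SE 0.12, edgeR adjusted p = 0.00831) and was not called in the paired limma fit on log2 of TPM plus 0.5 (-0.39, adjusted p = 0.0667). BIRC5 has an overlapping antisense transcript, and the sources used here do not say whether the counting used strand.

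Of the 4 spindle assembly genes all fell in the paired fit, with a median of -0.67. TPX2 (chromosome 20, 31739290 to 31801800), which nucleates microtubules around chromosomes and activates AURKA, had the largest difference of the 52 genes in both fits. It had 146.4, 94.8 and 76.6 CPM in ACSS2 shRNA libraries 1, 2 and 3, against 488.6, 293.3 and 132.5 CPM in Control shRNA libraries. Only ACSS2 shRNA 1 reached above a Control shRNA library, namely Control shRNA 3. The means were 105.9 ± 36.2 CPM in ACSS2 shRNA and 304.8 ± 178.3 CPM in Control shRNA cells (SD, n = 3 each). In the unpaired fit its log2 fold change of -1.52 (SE 0.45) had an edgeR adjusted p of 0.198. In the paired fit TPX2 fell 2.63-fold (-1.39, SE 0.17, edgeR adjusted p = 0.000177). By the paired value it ranked 78 from the lowest of the 13003 genes tested.

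ASPM, a spindle pole protein, had 32.3, 40.7 and 11.9 CPM in ACSS2 shRNA libraries 1, 2 and 3, against 44, 67.6 and 16.5 CPM in Control shRNA libraries, and fell by 0.56 (SE 0.12, edgeR adjusted p = 0.00661). NUSAP1, which bundles spindle microtubules, fell by 0.61 and HMMR by 0.74. The calls of ASPM and HMMR were lost without replicate 2 (edgeR adjusted p = 0.0737 and 0.0813), and that of HMMR also without replicate 1 (edgeR adjusted p = 0.0589) and without replicate 3 (edgeR adjusted p = 0.0996).

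The 3 cytokinesis genes fell in the paired fit, with a median of -0.80. PRC1, which cross-links midzone microtubules, had 112.5, 80.1 and 53.6 CPM in ACSS2 shRNA libraries 1, 2 and 3, against 216.6, 165.9 and 76.8 CPM in Control shRNA libraries. It fell by 0.84 (SE 0.13, edgeR adjusted p = 0.000654). ECT2, the exchange factor that activates RHOA at the cleavage furrow, had 49.2, 77.9 and 53.7 CPM in ACSS2 shRNA, against 84.5, 147.8 and 74.2 CPM in Control shRNA libraries 1, 2 and 3. Library 2 was the highest of both groups, and the lowest was library 1 in ACSS2 shRNA and library 3 in Control shRNA cells. ECT2 fell by 0.73 (SE 0.12, edgeR adjusted p = 0.00118), and ANLN, the scaffold of the contractile ring, fell by 0.80. These 3 calls held in all 9 fits with the block.

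Of the 6 chromosome structure genes 5 fell in the paired fit, with a median of -0.65. MKI67, the Ki-67 protein that coats mitotic chromosomes, had 366.4, 192.8 and 85.3 CPM in ACSS2 shRNA libraries 1, 2 and 3, against 778.4, 413.7 and 123.6 CPM in Control shRNA libraries. It was about as much lower in pair 1 (-1.09) as in pair 2 (-1.10), and fell by 0.91 in the paired fit (SE 0.14, edgeR adjusted p = 0.00066). TOP2A, which untangles DNA, fell by 0.62. Of the condensin genes, those specific to condensin I fell by 0.69 (NCAPG) and 0.68 (NCAPH), and of the core subunits shared by both condensins SMC2 fell by 0.38 and SMC4 did not pass. SMC4 had 61.1, 77.4 and 30.7 CPM in ACSS2 shRNA libraries 1, 2 and 3, against 76.7, 102.3 and 28.4 CPM in Control shRNA libraries. It was higher in ACSS2 shRNA cells in pair 3, and the paired estimate was a log2 fold change of -0.22 (SE 0.13, edgeR adjusted p = 0.224). SMC2 lost its call without replicate 1 and without replicate 2 (edgeR adjusted p = 0.0711 and 0.249), and TOP2A without replicate 2 (edgeR adjusted p = 0.0678).

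FOXM1 (chromosome 12, 2857680 to 2877174), a transcription factor of G2 and M phase genes, had 137.6, 65.2 and 34.4 CPM in ACSS2 shRNA libraries 1, 2 and 3, against 328.9, 150.6 and 60.3 CPM in Control shRNA libraries. Library 1 was the highest and library 3 the lowest of both groups, and within each number the ACSS2 shRNA library was lower. FOXM1 fell 2.14-fold in the paired fit (log2 fold change -1.10, SE 0.12, edgeR adjusted p = 0.000133), the smallest adjusted p of the 52 genes. Unpaired it was -1.19 (SE 0.64, edgeR adjusted p = 0.45).

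**Figure D4:**
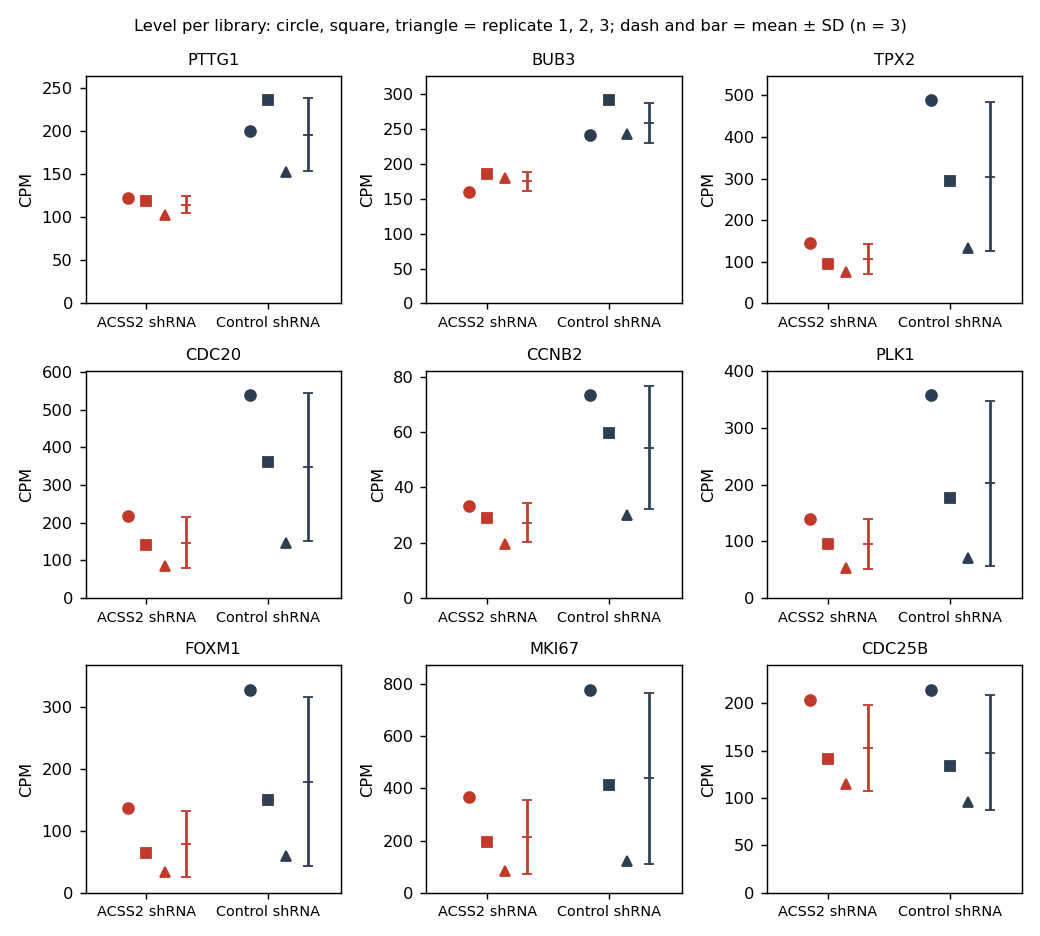
CPM of 9 genes in each library (circle, square and triangle for replicates 1, 2 and 3), with mean and SD at the right of each group (n = 3). The groups are apart for PTTG1 and BUB3, while for FOXM1 and MKI67 the triangle of the Control shRNA group lies below the circle and the square of the ACSS2 shRNA group.

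In most members number 3 differed from number 1 by more than ACSS2 shRNA differed from Control shRNA cells. With the group held, 49 of the 52 differed between numbers in edgeR, where 38.7% of all genes did. BUB3 (edgeR adjusted p = 0.320), PTTG1 (edgeR adjusted p = 0.0761) and NDC80 (edgeR adjusted p = 0.0906) did not pass. The median log2 difference of number 3 over number 1 was -1.45 for the members and -0.01 for all genes. That of number 2 over number 1 was -0.30 for the members, smaller in size than the -0.73 between the groups in the paired fit. Number 3 was lower than number 1 in 51 members, and in 49 the difference between these numbers was larger in size than that between the groups. It was widest in NCAPG (-2.42), MKI67 (-2.37), KIF4A (-2.26) and FOXM1 (-2.22), and near 0 in ECT2 (-0.03) and BUB3 (0.09). KIF4A, picked after its values were seen, had 53.6, 23.6 and 12.5 CPM in ACSS2 shRNA libraries 1, 2 and 3 and 72.3, 37.6 and 13.4 CPM in Control shRNA libraries. The labels say no more of what the batch numbers stand for.

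The order of the libraries was shared by the 2 groups for most members, and the matching share of all genes is not given here. In ACSS2 shRNA cells 41 members were highest in library 1 and lowest in library 3, 9 were highest in library 2 and lowest in library 3, and 2 were highest in library 2 and lowest in library 1. In Control shRNA cells 34 members were highest in library 1 and lowest in library 3, 17 were highest in library 2 and lowest in library 3, and 1 was highest in library 2 and lowest in library 1. CENPE and KIF20B (the second picked after its values were seen), with 12.6, 22 and 7.88 CPM in ACSS2 shRNA and 22, 44.4 and 9.3 CPM in Control shRNA libraries 1, 2 and 3, were among those highest in library 2.

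**Figure D5:**
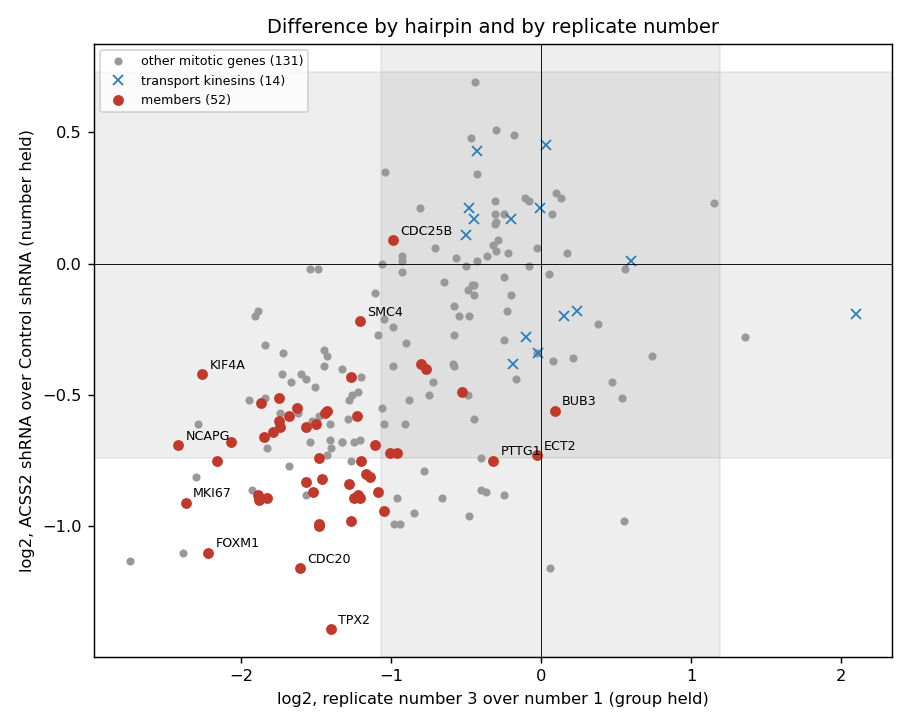
Log2 difference of ACSS2 shRNA over Control shRNA with the number held (vertical) against that of number 3 over number 1 with the group held (horizontal) for the 52 members, 131 other mitotic genes and 14 transport kinesins. Grey bands span the 5th to the 95th percentile of all genes tested, and 42 members lie at or left of the left edge of the vertical band, which BUB3, PTTG1 and ECT2 do not.

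By promoter letters, the median paired log2 fold change was -0.70 in the 34 genes with CHR letters and -0.82 in the 11 without them, as a description with no test. Only TTTGAA and TTCGAA were searched, so the 11 are not genes shown to lack a CHR. Among the 11 are AURKB and CENPI, whose windows begin inside the gene. The 5 genes with neither motif had a median of -0.82 and ran from -1.00 (KIF2C) to 0.09 (CDC25B). Within the whole distribution, 44 members lay at or below the 10th percentile of the paired log2 fold change over all genes tested (-0.53) and 25 at or below the 5th (-0.74).

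Other genes of the same machinery, from lists chosen by role, were counted in the same fits. Of 131 tested, 52 fell and 4 rose in the paired fit, with a median of -0.35. There 12.4% of all genes tested were called lower and 12.7% higher, which is also the background of each list below. None was called in the unpaired fit, where 18 had an unadjusted p under 0.05, as had 1820 of all 13003 genes tested. DESeq2 without pairing called 7 lower, against 2.35% of all genes. Without replicate 2 the paired fit gave 31 falls and 0 rises. Kinetochore genes beyond the members gave 13 falls of 33, MIS18A, a loader of CENPA, among them (-0.88, SE 0.17, edgeR adjusted p = 0.0029). MIS12, a subunit of the complex that joins inner and outer kinetochore, was at 0.19 and did not pass. Spindle, centrosome and midbody genes gave 18 falls of 29, from DEPDC1B (-0.99, SE 0.14, edgeR adjusted p = 0.000571) to PCNT, the pericentrin of centrosomes, at 0.35 without passing. Of 20 entry kinases and brakes 9 fell, with NEK6, a kinase of spindle formation, at -1.16 (SE 0.11, edgeR adjusted p = 6.98e-05) and ARPP19, an inhibitor of the phosphatase PP2A, at 0.27 without passing.

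Checkpoint and APC/C genes were counted next. Of 20, 5 fell and 3 rose in the paired fit, where 12.4% of all genes tested were called lower and 12.7% higher. TRIP13, the ATPase that remodels MAD2, had 23.2, 21.6 and 16.9 CPM in ACSS2 shRNA libraries 1, 2 and 3, against 58, 51 and 21.6 CPM in Control shRNA libraries, and fell by 0.99. ANAPC2, a catalytic subunit of the APC/C, had 57.1, 45.3 and 43.1 CPM in ACSS2 shRNA, against 39.8, 28.1 and 34.5 CPM in Control shRNA libraries 1, 2 and 3. It rose by 0.51 (SE 0.12, edgeR adjusted p = 0.00896). The other subunits that rose were CDC27 (0.48) and ANAPC16 (0.49), named after their values were seen. Without replicate 2 the calls of ANAPC2, CDC27 and ANAPC16 were lost (edgeR adjusted p = 0.137, 0.129 and 0.13). Every ACSS2 shRNA library lay above every Control shRNA library for 3 of the 20, ANAPC2 among them. This held for 1387 of all 13003 genes tested. The reverse held for 5 of the 20 and for 1252 of all genes tested. Of 14 condensin and cohesin genes 4 fell, with CDCA5 (sororin, which holds sister chromatids together) at -0.86 and NIPBL, the cohesin loader, at 0.24 without passing.

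Of the 15 regulators that bind these promoters or act on them, 3 fell and 1 rose in the paired fit. Over all genes tested, 12.4% were called lower and 12.7% higher. MYBL2, which encodes B-MYB, had 80, 37.6 and 17.8 CPM in ACSS2 shRNA libraries 1, 2 and 3, against 248.6, 82.4 and 25.6 CPM in Control shRNA libraries. Like FOXM1 it was lower in each pair and followed the batch number, and it fell by 1.13 (SE 0.17, edgeR adjusted p = 0.000655). CDKN1A, which encodes the CDK inhibitor p21, had 185.4, 177.4 and 162.5 CPM in ACSS2 shRNA, against 151.7, 86.8 and 95.3 CPM in Control shRNA libraries 1, 2 and 3, and rose by 0.69 (SE 0.14, edgeR adjusted p = 0.00362). All its ACSS2 shRNA libraries lay above all its Control shRNA libraries. That held for 1 of the 15 regulators and for 1387 of all 13003 genes tested. The call of CDKN1A was lost without replicate 2 (0.49, edgeR adjusted p = 0.0685). MYBL1 (-0.74), a relative of MYBL2, also fell and was named after its value was seen. It lost its call without replicate 2 (edgeR adjusted p = 0.0977) and in limma on log2 of TPM plus 0.5 (adjusted p = 0.0535). The MuvB subunits LIN9, LIN37, LIN52, LIN54 and RBBP4 lay between -0.29 and 0.24 and did not pass.

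Kinesins that carry cargo rather than chromosomes were counted in the same fits. Of 20 listed 14 were tested, 0 fell and 2 rose in the paired fit, with a median of 0.06, where 12.7% of all genes tested were called higher. The 2 that rose were KIF3B (0.43, SE 0.13, edgeR adjusted p = 0.0266) and KIF16B (0.45, SE 0.14, edgeR adjusted p = 0.039). KIF16B, a motor of endosomes, had 18.7, 18.8 and 16.3 CPM in ACSS2 shRNA libraries 1, 2 and 3, against 11.4, 14.3 and 13.9 CPM in Control shRNA libraries. KIF16B was not called by DESeq2 with the block (0.42, adjusted p = 0.113), nor in edgeR without replicate 1 (adjusted p = 0.158) or 2 (adjusted p = 0.16), and KIF3B was not called in edgeR without replicate 1 (adjusted p = 0.119). KIF9 was the lowest of them at -0.38 and did not pass.

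Limits of the counts bear on these values. The span that the deposited table gives for a gene was more than 10000 bases longer than RefSeq's in 29 of the 52 members, BUB3, FOXM1, TPX2, CDC20 and PLK1 among them, and whether reads of neighbours entered their counts was not tested. On the TPM scale the median over all genes was 0.12 (pseudocount 0.5), and relative to it the median of the members was -0.68 in the paired fit of limma, which called 38 members lower and none higher. The 11 calls of edgeR that limma did not make were those of BIRC5, TTK, KIF4A, KIF11, KIF14, KIF20B, CENPF, CENPI, NDC80, ASPM and SMC2. DESeq2 with the block did not call KIF14, NDC80, HMMR and SMC2.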

How the data were processed

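RNA of 6 libraries of MDA-MB-231BR cells was sequenced on a BGI platform after oligo(dT) enrichment, per the labels' protocols. HISAT, Bowtie2 and RSEM were used, with no version stated, per the submitters' processing notes, and the sources used here do not name the annotation. The deposited gene table gives the authors' expected counts (RSEM-style estimates that need not be whole) and the authors' TPM. A DESeq2 comparison by the authors is deposited with it, as columns of log2 fold change, p-value and q-value, with settings that the sources used here do not name. The table lists 17721 genes, with chromosome accessions of GRCh38, and was read without its 565 broken lines of spilled annotation, with 26 symbols that had become dates restored by gene ID.

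Expected counts (10.47% to 13.01% not whole per library) were rounded, scaled by TMM and tested in R 4.3.3 by edgeR 4.0.16 (quasi-likelihood F test), with filterByExpr (minimum count 10, minimum total count 15) and Benjamini-Hochberg adjustment over all 13003 genes tested. The script was tested on simulated data. The unpaired fit has no covariate and was the planned main fit, and the paired fit adds the batch number as a block. The numbers are the labels' batch tag. Across genes, deviations from the group means correlated by 0.716, 0.494 and 0.74 between libraries of the same number, with genes not being independent replicates. Between libraries of different numbers they correlated by at most -0.00998. Within a group the deviations of a gene sum to 0, so positive values for the same number push those for different numbers down. The contrast between the 2 kinds of pairs is thus partly fixed by the centring. The numbers were taken to pair the libraries, and both fits are given. Levels are CPM with TMM factors, SE is the size of the log2 fold change over the square root of F, and differences within a pair are of log2 CPM with a prior count of 2. Intervals of counting error are not given, since the tests cover that error along with replicate spread. Alternatives were DESeq2 1.42.0, limma 3.58.1 on log2 of TPM plus 0.5 or 1, other size factors, no low-count filter and leaving out each library or number.

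Genes given with values in each library are ACSS2 and, in each role group, the member with the smallest unpaired p, the lowest and highest log2 fold change and the highest mean TPM. Of each list of other mitotic genes, the lowest and highest paired log2 fold change are named. Other members are named with their fold change, and KIF4A and KIF20B are given by library outside this rule. The members, lists and role groups were chosen with earlier results of these data known. Promoters are 1 window per gene from RefSeq, the first listed where a gene has several starts. The FPKM columns were left unused. A gene of the list of regulators is counted but not reported by name here.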

Additional observations from a re-analysis of the deposited data

How the results depend on the processing

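The number of members called lower depends on the block. It was 0 without it and 49 with it, while all genes gave 6 lower and 3 higher without the block and 1608 lower and 1657 higher with it. Without the block, DESeq2 called 3 members and 305 genes lower and 213 higher, leaving out the low-count filter gave 27 lower and 12 higher, and limma on log2 TPM gave 5 higher with either pseudocount. Leaving out 1 library or number left between 0 and 5 genes lower and between 0 and 1 higher, no member called, and a median of the members between -1.12 and -0.50. The lowest was without Control shRNA replicate 3 and the highest without Control shRNA replicate 1. Signs turned among these settings in CDC25B (-0.23 to 0.42), SMC4 (-0.67 to 0.07) and KIF4A (-1.21 to 0.23), none of them called.

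With the block, 32 of the 49 members were called in all 9 fits. DESeq2 lost 4, limma 11 (pseudocount 0.5) and 9 (pseudocount 1), and leaving out number 1, 2 and 3 lost 5, 15 and 2. Without number 3 KIF18A was gained, and the count over the left-out numbers lay between 34 and 48. Over all genes limma gave 858 lower and 1803 higher (pseudocount 0.5) and 982 and 2082 (pseudocount 1), and other mitotic genes gave 31 lower with pseudocount 0.5. Without replicate 2, all genes gave 917 lower and 664 higher, and other mitotic genes 31 and 0. The ranges over the left-out numbers were 917 to 1554 lower and 664 to 1555 higher for all genes. Why the calls move was not tested. Leaving out a number leaves 2 pairs, and 3 pairs limit all values here.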
